A study of Homo sapiens with 12 samples.

Results

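The control polysomes of MDA-MB-231 and SUM159, a pair of established human triple-negative breast cancer (TNBC) lines, were set against each other. The libraries were taken by their labels alone, as the 2 MDA-MB-231 EV and the 2 SUM159 EV libraries, which are 4 of the 12 in the series. The study asked what TRMT112, a protein that holds and activates several RNA and protein methyltransferases, does to translation, and sequenced the RNA of pooled polysome fractions from sucrose gradients. TRMT112 was knocked down (KD) in MDA-MB-231 and SUM159 and overexpressed (OE) in BT549, each beside an EV control, in 2 libraries per group. The KD libraries of both lines serve as a second measurement of the line difference, since the EV means hold none of them. All 12 libraries entered the fit that sets the spread behind each standard error and p-value. A fit of the 4 EV libraries alone called 12282 of 15035 genes tested, in place of 12512 of 16538.

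Both EV groups carry the genotype EV CTRL and no treatment in the labels, while the methods of the study name a non-silencing short hairpin vector as the control of the knockdown. Both lines were grown in DMEM/F-12 with fetal bovine serum. The medium of SUM159 also held insulin and hydrocortisone, a glucocorticoid, and that of MDA-MB-231 held neither, so the medium and the line cannot be told apart in any value below. Nothing states that the 2 libraries of a group came from separate cultures, so every p-value measures the spread between these libraries, which may be technical. Each line is 1 cell line and stands for no group of tumours.

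Polysomes are mRNAs that carry several ribosomes at once, and they sediment deeper in a sucrose gradient than single ribosomes or free mRNA. The RNA of these fractions therefore follows both how much of an mRNA a cell holds and how much of it is loaded with ribosomes. No total RNA was used here, so the 2 quantities cannot be told apart, and in a bulk library fewer cells with an mRNA and less of it per cell cannot be told apart either. MDA-MB-231 and SUM159 are both known as TNBC lines of mesenchymal, claudin-low character, in which epithelial junction genes are low and vimentin is high.

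The 4 EV libraries held 22954226 to 23630478 expected counts, and 0.693% to 0.938% of the counts lay on the mRNAs of the mitochondrial genome. Within a line, the median gene differed between the 2 libraries by 0.0838 on the log2 scale in MDA-MB-231 and by 0.0856 in SUM159. Every transcript listed had a count in at least 1 BT549 library, so a transcript that BT549 lacks has no row, and a gene that is high in MDA-MB-231 or SUM159 can be missing for that reason. TRMT112 itself was lower in the KD than in the EV libraries of both lines, at 1764 and 1682 against 4147 and 3938 normalised counts in MDA-MB-231 and at 3909 and 3699 against 6332 and 6566 in SUM159.

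The markers of the labels were read first. ESR1 and TFF1, which mark estrogen-responsive cells, had no row, and PGR, the progesterone receptor, had none past the filter. ERBB2, which encodes HER2, was present in both lines, at 1448 and 1502 normalised counts in MDA-MB-231 and 2720 and 2666 in SUM159. Of the 5 tested members of this list 1 was higher in MDA-MB-231 (FOXA1, 117 and 105 against 34.3 and 15.1) and 4 were higher in SUM159. VIM, the vimentin gene, was high in both lines, with 30662 and 29735 counts in MDA-MB-231 and 46019 and 46672 in SUM159, and CDH1, the epithelial cadherin, was at or near 0 in both, with 0 and 3.65 against 0 and 0. Of 22 markers of blood, endothelial, fat, nerve and pigment cells, 8 had enough counts to be tested, and CD68 was the single one of them above 50 normalised counts in any of the 4 libraries. CD68, a lysosomal protein that macrophages are known for, had 4379 and 4277 counts in MDA-MB-231 and 657 and 697 in SUM159.

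Line differences reached most of the genes that could be tested. Of 16538 genes, 12512 differed between the lines at an adjusted p under 0.05 (edgeR quasi-likelihood test, Benjamini-Hochberg adjustment), which is 75.7% of the genes. The higher line was MDA-MB-231 for 6021 genes (36.4%) and SUM159 for 6491 (39.2%). Such genes are termed called below. The median size of a called difference was 0.97 on the log2 scale, and 3179 of the called genes differed by less than 0.5, so a call alone says little about size. A difference of at least 1 on the log2 scale was found for 6100 genes (36.9%), 3146 higher in MDA-MB-231 (19.0%) and 2954 higher in SUM159 (17.9%). The values of the EV groups did not overlap for 14292 genes (86.4%). The median log2 difference over all genes tested was -0.03, and all differences are given as MDA-MB-231 minus SUM159.

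**Figure D1:**
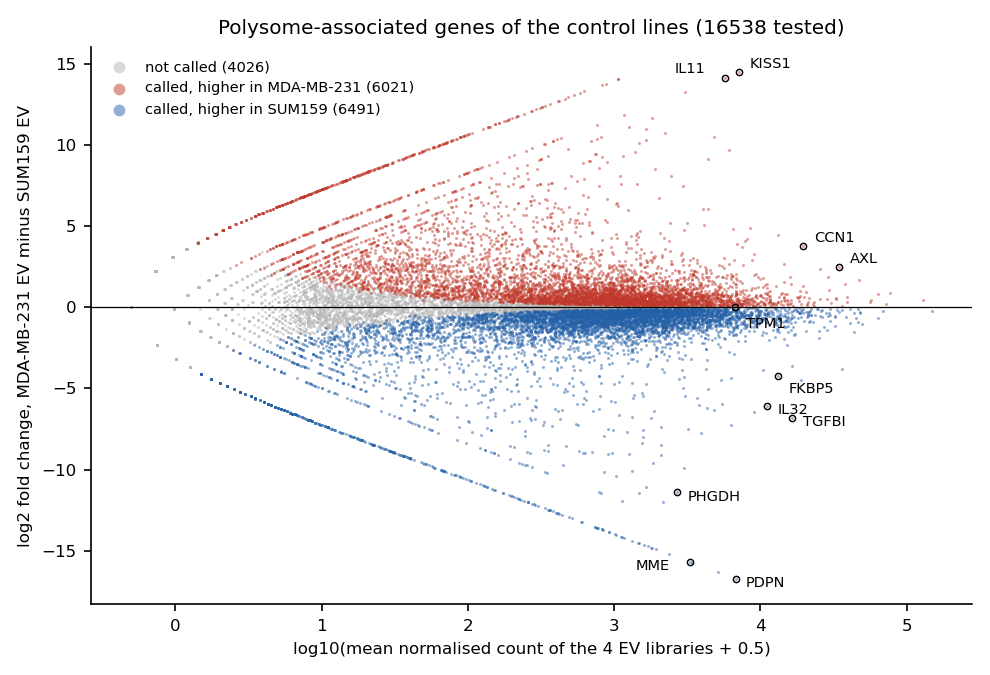
Each point is 1 of 16538 genes, with the log10 of its mean normalised count over the 4 EV libraries (plus 0.5) on the x axis and its fitted log2 difference, MDA-MB-231 EV minus SUM159 EV, on the y axis. Red points (6021) were called higher in MDA-MB-231 and blue points (6491) higher in SUM159, and the straight outer edges are genes with no count in either library of 1 line.

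Among protein-coding genes 80.5% were called, and among long noncoding RNAs 51.9%. The same contrast in the KD libraries called 12880 genes (77.9%). Of the EV calls, 9745 were called in the same direction in the KD libraries, which is 77.9% of the EV calls and 75.7% of the KD calls, 1111 were called in the opposite direction and 1656 were not called. Of the genes that differed by at least 1 in the EV libraries, 4630 also did so in the same direction in the KD libraries (75.9% of these EV calls and 64.9% of the 7137 KD calls) and 80 in the opposite one. The line difference itself changed between EV and KD for 8415 genes (50.9%) by the interaction term of the same fit.

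A first group of genes was read in 1 line only, with at most 3 counts in both libraries of the other line and at least 100 normalised counts in both of its own. MDA-MB-231 had 178 such genes and SUM159 had 150, and 111 and 102 of them met the same rule in the KD libraries. Folds against a line without the gene are lower bounds, set by 3 counts per library, and lay between 34.8 and 4729 in MDA-MB-231 and between 38.6 and 4876 in SUM159. KISS1, which encodes the kisspeptin precursor, had 14221 and 14361 normalised counts in MDA-MB-231 against 1.01 and 0 in SUM159 (at least 4729-fold higher). IL11, a cytokine of the interleukin-6 family, had 11316 and 11545 against 1.01 and 0 (at least 3783-fold). These were the 2 most abundant genes of the group in MDA-MB-231, followed by PYGL, the liver glycogen phosphorylase, with 6136 and 6108 against 0 and 1.01 (at least 2026-fold higher).

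SUM159 had its own set. PDPN, the membrane glycoprotein podoplanin, was at 0 and 0 in MDA-MB-231 and at 13415 and 13703 in SUM159 (at least 4876-fold higher there). MME, the cell surface peptidase neprilysin, was at 0 and 0 against 6555 and 6619 (at least 2369-fold). NPTX2, a neuronal pentraxin, was at 0 and 0 against 6839 and 6757 (at least 2444-fold). The noncoding IRX2-DT reached 10438 and 10136 in SUM159 with no count in MDA-MB-231. MGP, an inhibitor of calcification, reached 3838 and 3857, and GAL, the precursor of the neuropeptide galanin, 3133 and 3289, again without a count in MDA-MB-231. BEX1, a small adaptor protein, had 3448 and 3734 counts in the SUM159 EV libraries but 17.1 and 5.19 in the SUM159 KD libraries, and its line difference changed between EV and KD (adjusted p = 0.00152 for the interaction).

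Epithelial genes were read next, since both lines are classed as mesenchymal. Of 34 tested genes for keratins and epithelial junctions, 22 were higher in MDA-MB-231 and 8 in SUM159, with a median log2 difference of 3.04 (2.47 with genes absent from 1 line set at their bound) against -0.03 over all genes. SPINT2, a membrane-bound inhibitor of serine proteases, had 9731 and 9638 normalised counts in MDA-MB-231 against 6.06 and 7.04 in SUM159 (log2 difference 10.50 ± 0.08 SE, adjusted p = 1.36e-29). CLDN7, a claudin of tight junctions, had 680 and 730 against 0 and 7.04 (7.59 ± 0.27, adjusted p = 1.29e-17). The values of the lines did not overlap for these genes, and both were also called higher in MDA-MB-231 in the KD libraries.

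The list was not uniform. EPCAM, an epithelial adhesion molecule, had 69.6 and 72.1 counts in MDA-MB-231 and 1.01 and 4.02 in SUM159, so its level in MDA-MB-231 was low. KRT8 and KRT18, the keratin pair of simple epithelia, were abundant in both lines and differed by 0.47 ± 0.04 and 0.83 ± 0.04. KRT7, another keratin of simple epithelia, went the other way, with 2514 and 2489 counts in MDA-MB-231 and 30344 and 31001 in SUM159 (-3.62 ± 0.03, adjusted p = 1.59e-28). The summed counts of the list, KRT7 included, were lower in MDA-MB-231 (39596 and 38583) than in SUM159 (48163 and 48905), although more of its members were called higher in MDA-MB-231. TP63, a transcription factor of basal epithelium, was at 0 and 0 in MDA-MB-231 and at 1814 and 1903 in SUM159.

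Mesenchymal transcription factors and markers lay more often on the side of SUM159. Of 26 tested, 6 were higher in MDA-MB-231 and 16 in SUM159, with a median log2 difference of -1.92 (-0.98 with bounds). TWIST2 and TWIST1, transcription factors of epithelial-mesenchymal transition, had 0 and 0 counts each in MDA-MB-231, against 2410 and 2248 (at least 838-fold higher in SUM159) and 592 and 503 (at least 197-fold). CDH2, the neural cadherin, had 3.76 and 1.83 against 1389 and 1426 (-8.92 ± 0.17, adjusted p = 1.23e-22). SNAI2, a repressor of CDH1, was higher in SUM159 with 445 and 394 against 1184 and 1204 (-1.51 ± 0.06). ZEB1, another such repressor, was higher in MDA-MB-231 by a small step, 1247 and 1216 against 918 and 978 (0.38 ± 0.06). The lines thus differed in which of these factors were on polysomes, and not in 1 direction.

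**Figure D2:**
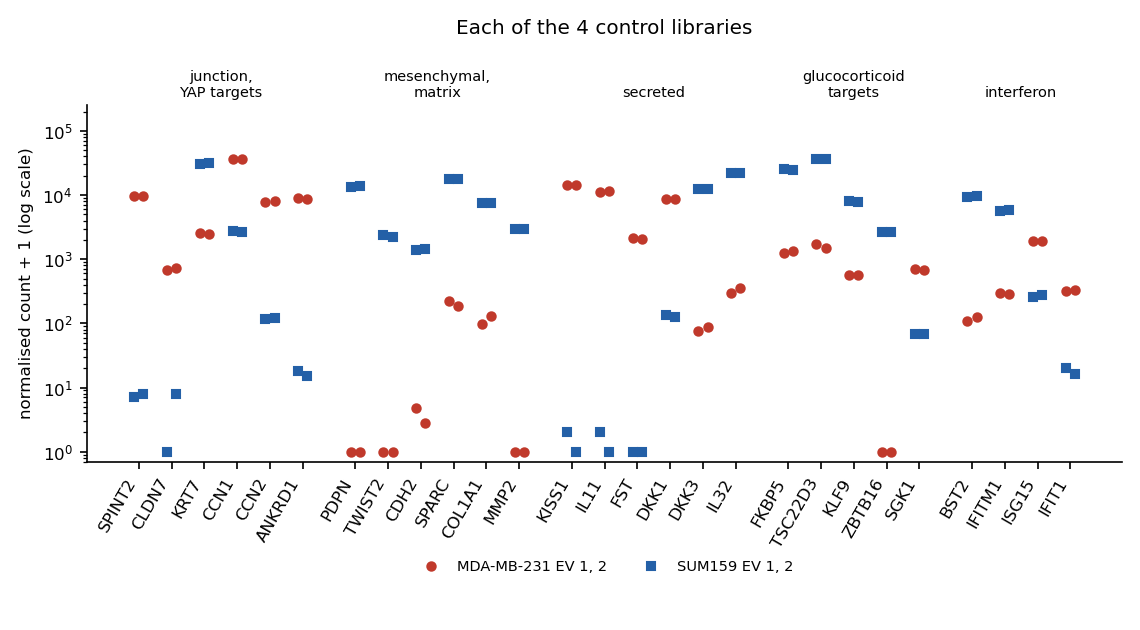
Normalised counts plus 1 (log axis) of single genes in each of the 4 control libraries, with MDA-MB-231 EV libraries 1 and 2 as red circles and SUM159 EV libraries 1 and 2 as blue squares. The 2 libraries of a line lie close together and the lines are apart for every gene drawn, with points at 1 where no count was found.

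Genes of the extracellular matrix differed in the same lists in both directions. Of 28 tested collagen chains, 3 were higher in MDA-MB-231 and 18 in SUM159 (median -1.99, -1.65 with bounds). COL1A1, a chain of type I collagen, had 95.0 and 129 counts in MDA-MB-231 and 7420 and 7476 in SUM159 (-6.05 ± 0.06, adjusted p = 7.98e-28). COL6A3, a chain of type VI collagen, had 7.53 and 7.31 against 1088 and 1171 (-7.23 ± 0.16). COL13A1, a transmembrane collagen, was the largest exception, with 1646 and 1629 against 3.03 and 2.01 (at least 542-fold higher in MDA-MB-231). Among 46 other matrix proteins 19 were higher in MDA-MB-231 and 21 in SUM159 (median -0.32, -0.01 with bounds), so this list had no clear side. TGFBI, a secreted adhesion protein, had 264 and 311 against 33059 and 32451 (-6.83 ± 0.05). SPARC, a collagen-binding matrix protein, had 223 and 185 against 17807 and 17901 (-6.45 ± 0.05), and MFAP2, a microfibril protein, had 390 and 352 against 3.03 and 1.01 (at least 123-fold higher in MDA-MB-231).

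Proteases and their inhibitors were divided, with 14 of 36 tested higher in MDA-MB-231 and 19 in SUM159 (median -0.15, and 0.09 in the KD libraries). MMP2, a gelatinase, had 0 and 0 counts in MDA-MB-231 and 3001 and 2908 in SUM159 (at least 1062-fold higher). ADAM8, a membrane-bound metalloprotease, showed the reverse, with 1720 and 1778 against 0 and 0 (at least 579-fold). SERPINE2, an inhibitor of thrombin and plasminogen activators, had 1290 and 1283 against 159 and 141 (3.10 ± 0.08). Of 16 tested integrin subunits, 3 were higher in MDA-MB-231 and 10 in SUM159 (median -0.36). ITGB2, the beta subunit known from leukocytes, had 706 and 642 against 39.4 and 31.2 (4.25 ± 0.15), and ITGB5, which pairs with the alpha V subunit, had 985 and 1038 against 3848 and 3907 (-1.94 ± 0.05).

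Target genes of YAP and TEAD, transcription regulators that respond to cell shape and matrix stiffness, were higher in MDA-MB-231 for 16 of 24 tested genes and higher in SUM159 for 2, with a median log2 difference of 0.86. CCN1 and CCN2 encode secreted matricellular proteins. CCN1 had 37032 and 36400 counts in MDA-MB-231 and 2784 and 2654 in SUM159 (3.76 ± 0.03, adjusted p = 1.25e-28). CCN2 had 7894 and 8183 against 117 and 121 (6.08 ± 0.06, adjusted p = 2.19e-28). ANKRD1, an ankyrin repeat protein and transcriptional cofactor, had 8838 and 8807 against 17.2 and 14.1 (9.13 ± 0.09, adjusted p = 2.59e-28). In the KD libraries the differences of CCN1, CCN2 and ANKRD1 were 2.05, 4.64 and 7.65.

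The contractile cytoskeleton and caveolae gave 24 genes higher in MDA-MB-231 and 11 higher in SUM159 of 38 tested (median 0.37). FLNC, an actin crosslinker of muscle, had 1491 and 1555 counts in MDA-MB-231 against 1.01 and 0 in SUM159 (at least 504-fold higher). TPM2, a tropomyosin that lies along actin filaments, had 182 and 164 against 10682 and 10940 (-5.97 ± 0.06, adjusted p = 5.62e-28). TPM1, a related tropomyosin and a gene that the study follows, had 6895 and 6521 against 6692 and 6825 and was not called (-0.01 ± 0.03, adjusted p = 0.764). Its transcripts, however, differed between the lines, as described with the transcript starts.

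Growth factors and other ligands were called higher in MDA-MB-231 for 26 and in SUM159 for 13 of 47 tested genes (median 0.74). FST, the activin-binding protein follistatin, had 2156 and 2079 counts in MDA-MB-231 and none in SUM159 (at least 701-fold higher). FGF2, a fibroblast growth factor, had 2.82 and 0 against 1693 and 1725 (at least 614-fold higher in SUM159). FGF1, its relative, had 637 and 544 against 3.03 and 3.02 (at least 195-fold higher in MDA-MB-231). A pair of secreted Dickkopf proteins also moved apart. DKK1, an inhibitor of Wnt signalling, had 8558 and 8776 against 132 and 125 (6.08 ± 0.06), and DKK3 had 76.2 and 85.8 against 12470 and 12494 (-7.26 ± 0.05). MDK, the growth factor midkine and a gene that the study names, had 590 and 566 against 53.5 and 52.3 (3.45 ± 0.10, adjusted p = 5.16e-19).

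Receptor tyrosine kinases showed no common side, with 18 of 42 higher in MDA-MB-231 and 14 in SUM159 (median 0.07). AXL, a receptor for GAS6, was the most abundant of them in MDA-MB-231, with 59021 and 58234 counts against 10307 and 10511 in SUM159 (2.49 ± 0.03, adjusted p = 6.55e-28). ROS1, an orphan receptor kinase, had 0 and 0 against 3527 and 3330 (at least 1233-fold higher in SUM159). ERBB3, a partner of HER2, had 121 and 115 against 2.02 and 7.04 (4.67 ± 0.40). EGFR, the epidermal growth factor receptor, differed little, with 3353 and 3182 against 2645 and 2803 (0.26 ± 0.04).

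Genes known to respond to glucocorticoids were higher in SUM159, the line whose medium held hydrocortisone, for 24 of 30 tested members and higher in MDA-MB-231 for 6, with a median log2 difference of -1.14 (-1.15 in the KD libraries). Hydrocortisone acts through the glucocorticoid receptor, which binds DNA and raises or lowers its target genes. TSC22D3, which encodes the glucocorticoid-induced leucine zipper, had 1698 and 1516 counts in MDA-MB-231 and 36803 and 36336 in SUM159 (-4.51 ± 0.04, adjusted p = 6.17e-29). FKBP5, a cochaperone of the receptor, had 1267 and 1363 against 25180 and 24930 (-4.25 ± 0.04, adjusted p = 1.54e-27). ZBTB16, a zinc finger transcription factor, had 0 and 0 against 2651 and 2662 (at least 955-fold higher in SUM159). NR3C1, the receptor gene, had 2007 and 1988 against 2843 and 2823 (-0.50 ± 0.04).

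The exceptions of this list were not small. SGK1, a serum and glucocorticoid regulated kinase, had 702 and 685 counts in MDA-MB-231 and 67.6 and 68.4 in SUM159 (3.35 ± 0.10, adjusted p = 7.32e-19). DUSP1, a phosphatase of MAP kinases, had 8883 and 9058 against 3812 and 3803 (1.24 ± 0.04). No library of either line was grown in the other medium, so the part of the medium in these values was not tested.

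Inflammatory genes, here chemokines, cytokines and targets of NF-kappaB, were higher in SUM159 for 26 of 44 tested genes and higher in MDA-MB-231 for 13 (median -1.23, -1.11 with bounds). C3, the central protein of complement, had 9.41 and 13.7 counts in MDA-MB-231 and 4241 and 4073 in SUM159 (-8.47 ± 0.15). SAA1, an acute phase protein, had 34.8 and 33.8 against 7014 and 5741 (-7.53 ± 0.13). IL32, a proinflammatory cytokine, had 291 and 361 against 21859 and 21798 (-6.06 ± 0.05). SOD2, the mitochondrial superoxide dismutase and an NF-kappaB target, had 4727 and 4839 against 67071 and 67736 (-3.82 ± 0.03). In the KD libraries the median of the list was 0.55, with SOD2 at -0.73, so the direction of this median held for the EV libraries and not for the KD ones.

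Interferon-stimulated genes were called in both directions. Interferons act through STAT and IRF transcription factors, and many of their targets carry a short repeated element in the promoter. Of 83 tested genes, 23 were higher in MDA-MB-231 and 46 in SUM159 (median -0.51, -0.39 with bounds, and 0.58 in the KD libraries). BST2, which tethers budding virus to the cell, had 107 and 124 counts in MDA-MB-231 and 9356 and 9623 in SUM159 (-6.35 ± 0.06, adjusted p = 8.46e-29). IFITM1, a membrane protein that hinders virus entry, had 295 and 283 against 5581 and 5833 (-4.30 ± 0.05). IFIT1, which binds foreign RNA ends, had 323 and 329 against 19.2 and 15.1 (4.24 ± 0.16, adjusted p = 3.42e-17). ISG15, a ubiquitin-like modifier, had 1893 and 1897 against 256 and 278 (2.82 ± 0.07), and HERC5, a ligase that attaches ISG15, had 186 and 225 against 2.02 and 2.01 (at least 68.0-fold higher in MDA-MB-231). IFITM3, the neighbour of IFITM1, had 17484 and 16985 against 15905 and 17035 and was not called (adjusted p = 0.0904).

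The promoters of 4 of these genes show that the same element stands before genes that were high in opposite lines. The element searched was GAAANNGAAA on either strand of the 300 bases from 250 before to 50 after the start of the gene (RefSeq, GRCh38.p14), and matches are in capitals, on the other strand as the reverse complement. BST2 (chr19:17405581-17405880, minus strand) was high in SUM159, and HERC5 (chr4:88456869-88457168, plus strand), IFIT1 (chr10:89392373-89392672, plus strand) and ISG15 (chr1:1013247-1013546, plus strand) were high in MDA-MB-231.
BST2: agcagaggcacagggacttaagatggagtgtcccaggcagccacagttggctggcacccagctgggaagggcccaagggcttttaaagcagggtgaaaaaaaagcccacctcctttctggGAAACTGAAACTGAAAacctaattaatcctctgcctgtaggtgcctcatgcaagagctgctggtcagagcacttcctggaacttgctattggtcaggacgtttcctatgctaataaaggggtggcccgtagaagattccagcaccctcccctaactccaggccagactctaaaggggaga
HERC5: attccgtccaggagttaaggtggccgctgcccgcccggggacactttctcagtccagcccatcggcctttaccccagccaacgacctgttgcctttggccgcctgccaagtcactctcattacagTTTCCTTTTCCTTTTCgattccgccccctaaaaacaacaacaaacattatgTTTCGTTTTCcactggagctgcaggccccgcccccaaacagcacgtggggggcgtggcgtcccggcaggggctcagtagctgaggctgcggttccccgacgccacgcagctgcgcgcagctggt
IFIT1: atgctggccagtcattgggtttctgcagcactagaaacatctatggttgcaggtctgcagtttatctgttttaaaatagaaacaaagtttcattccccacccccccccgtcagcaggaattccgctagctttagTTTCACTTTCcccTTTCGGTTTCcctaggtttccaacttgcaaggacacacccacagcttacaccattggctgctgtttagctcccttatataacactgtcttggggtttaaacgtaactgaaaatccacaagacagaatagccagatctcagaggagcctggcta
ISG15: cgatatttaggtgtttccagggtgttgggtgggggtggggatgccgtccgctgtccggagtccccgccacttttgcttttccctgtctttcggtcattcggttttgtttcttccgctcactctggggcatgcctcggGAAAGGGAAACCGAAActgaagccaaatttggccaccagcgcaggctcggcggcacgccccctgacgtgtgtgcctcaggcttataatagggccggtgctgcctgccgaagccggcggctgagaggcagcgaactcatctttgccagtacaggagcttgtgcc

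HERC5 held 3 matches, which overlap in part, and BST2, IFIT1 and ISG15 held 2 each. The matches of BST2 and those of ISG15 also overlap, and those of IFIT1 lie apart. Of 63 promoters found for the list, 37 held the element (58.7%), against 996 of all 27305 promoters (3.65%). Among the 37 genes with a match, 10 were higher in MDA-MB-231 and 21 in SUM159 (median -0.51), and among the 26 without one, 9 and 11 (median -0.11). A match describes the letters and not a site that is in use.

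Antigen presentation leaned to SUM159 in the EV libraries, with 21 of 28 tested genes higher there and 4 higher in MDA-MB-231. The median was -0.83, and -0.15 in the KD libraries. PSMB9, a subunit of the immunoproteasome, had 519 and 513 counts in MDA-MB-231 and 3837 and 3867 in SUM159 (-2.90 ± 0.05). ERAP2, a peptidase that trims peptides for MHC class I, had 56.4 and 46.6 against 757 and 775 (-3.89 ± 0.19). CD274, the immune checkpoint ligand PD-L1, was the largest exception, with 2484 and 2510 against 127 and 109 (4.40 ± 0.08, adjusted p = 1.06e-22).

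**Figure D3:**
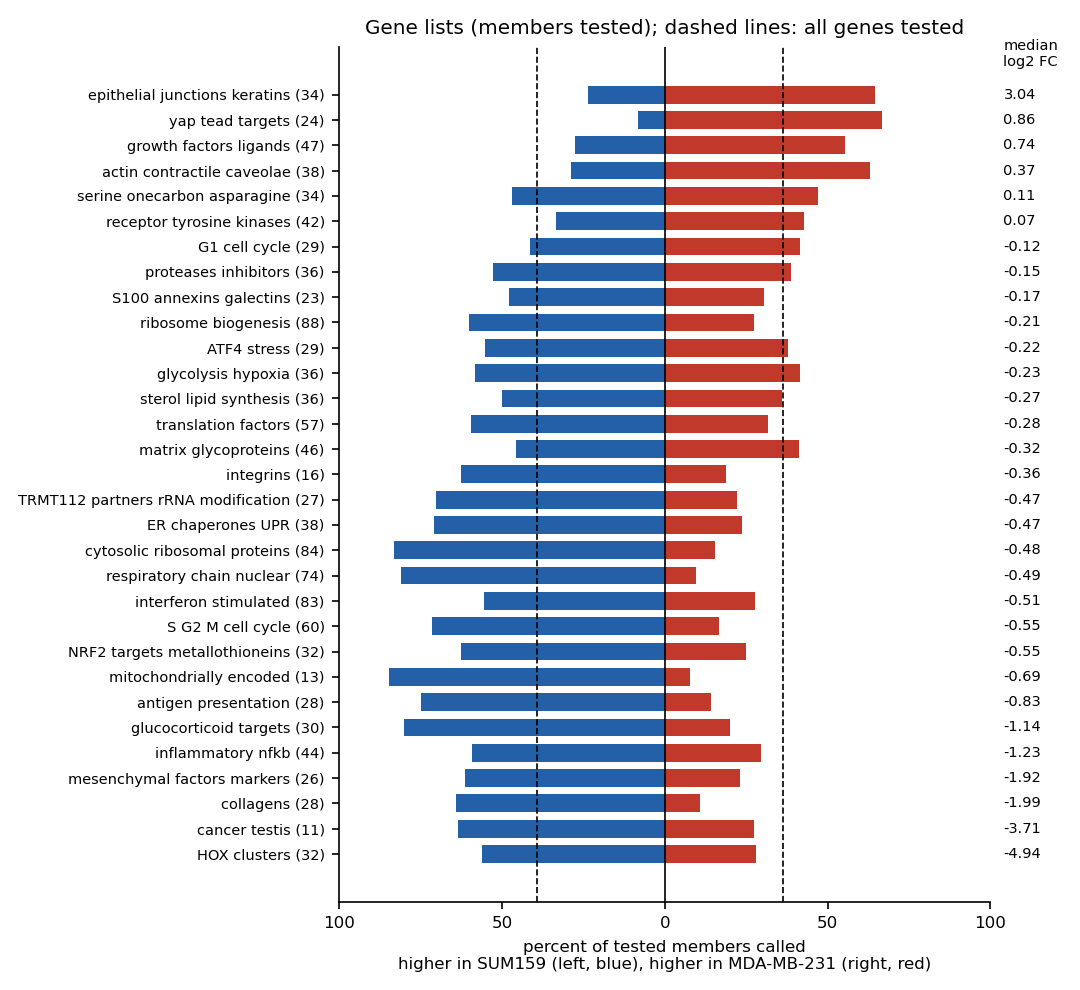
For gene lists with at least 10 tested members, bars show the percent of tested members called higher in SUM159 (blue, to the left) and in MDA-MB-231 (red, to the right), with the median log2 difference of the members at the right edge and dashed lines at the shares over all genes tested, 39.2% and 36.4%. Genes of junctions and YAP targets have the longest red bars beside short blue ones, and genes of cytosolic ribosomes, respiration and glucocorticoid response are among those with the longest blue ones.

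Metabolic genes held a small number of large differences among many small ones. In the synthesis of serine, glycine, one-carbon units, proline and asparagine, 16 of 34 tested genes were higher in each line (median 0.11, and 1.10 in the KD libraries). PHGDH, the first enzyme of serine synthesis, had 1.88 and 1.83 counts in MDA-MB-231 and 5526 and 5268 in SUM159 (at least 1941-fold higher). PSAT1, the next enzyme of that pathway, was abundant in both lines, with 10131 and 10223 against 9549 and 9578 (0.09 ± 0.03). CBS, which makes cystathionine from homocysteine, had 0 and 0 against 1377 and 1682 (at least 550-fold higher in SUM159). ASNS, the asparagine synthetase and a gene that the study names, had 2534 and 2788 against 3530 and 3681 (-0.44 ± 0.05, adjusted p = 3.37e-08), while the KD libraries gave 1.48.

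Sterol and fatty acid synthesis was called higher in MDA-MB-231 for 13 and in SUM159 for 18 of 36 genes (median -0.27, and 0.38 in the KD libraries), and FADS2, the delta-6 desaturase of polyunsaturated fatty acids, stood out with 13177 and 12895 counts against 872 and 857 (3.91 ± 0.04, adjusted p = 2.19e-28). Glycolysis and hypoxia genes were split into 15 and 21 of 36 (median -0.23, and 0.25 in the KD libraries). SLC16A1, a lactate transporter, had 49.9 and 75.8 counts in MDA-MB-231 and 2634 and 2717 in SUM159 (-5.41 ± 0.09), and ADM, the hypoxia-responsive peptide adrenomedullin, had 2840 and 2749 against 144 and 136 (4.32 ± 0.07). Targets of NRF2 and metallothioneins were higher in MDA-MB-231 for 8 and in SUM159 for 20 of 32 (median -0.55, and 0.11 in the KD libraries). AKR1C2, a ketosteroid reductase, had 13.2 and 11 against 3147 and 3125 (-8.01 ± 0.12), although the near-identical members of its family make the split of reads among them uncertain.

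Stress lists were called in both directions. Genes of ATF4 and the integrated stress response were higher in MDA-MB-231 for 11 and in SUM159 for 16 of 29 (median -0.22, and 0.74 in the KD libraries), led by NUPR1, a small stress-induced nuclear protein, with 11.3 and 8.22 counts against 1729 and 1891 (-7.52 ± 0.13). DDIT4, an inhibitor of mTORC1, had 22861 and 21591 against 63996 and 65231 in the EV libraries (-1.54 ± 0.03) and a difference of 0.17 in the KD libraries. Chaperones and the unfolded protein response of the endoplasmic reticulum gave 9 and 27 of 38 (median -0.47). FKBP10, a prolyl isomerase that acts on collagen, had 3037 and 3044 against 9862 and 9970 (-1.71 ± 0.04).

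Genes of DNA replication and mitosis were higher in SUM159 for 43 of 60 and higher in MDA-MB-231 for 10 (median -0.55). TOP2A, a topoisomerase of dividing cells, had 740 and 822 counts in MDA-MB-231 and 3795 and 3712 in SUM159 (-2.26 ± 0.06). AURKB, the kinase of the chromosomal passenger complex, had 6603 and 6702 against 2078 and 2071 (1.68 ± 0.04), and lies on the short arm of chromosome 17. VRK1, a kinase that the study names, was not called, with 1123 and 1185 against 1099 and 1069 (0.09 ± 0.06, adjusted p = 0.175). Genes of G1 were called 12 times in each direction among 29 (median -0.12). MYC had 5633 and 5470 against 19650 and 19590 (-1.82 ± 0.03, adjusted p = 4.82e-24). CDKN2A, which encodes the cell cycle inhibitor p16, had 0 and 0 counts in MDA-MB-231 and 8.07 and 7.04 in SUM159, against a mean of 32261 in the BT549 EV libraries, so it was at or close to 0 in both lines.

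Most genes of the translation machinery were higher in SUM159 by small steps in the EV libraries. The medians of 3 of the 4 lists of this machinery had the other sign in the KD libraries. Of 84 cytosolic ribosomal protein genes, 70 were higher in SUM159 and 13 in MDA-MB-231 (median -0.48, and -0.66 in the KD libraries), and 15 of the 84 differed by at least 1. The summed counts of the list were 886425 and 887483 in MDA-MB-231 and 1137032 and 1163635 in SUM159. RPL39L, a copy of RPL39 known from testis, was the largest exception, with 892 and 826 against 21.2 and 27.1 (5.14 ± 0.14), and RPL22L1, a copy of RPL22, had 102 and 105 against 927 and 868 (-3.12 ± 0.11). Reads of ribosomal protein genes can be shared with near-identical pseudogenes, which makes single values of this list uncertain.

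Initiation, elongation and termination factors gave 18 genes higher in MDA-MB-231 and 34 higher in SUM159 of 57 (median -0.28, and 0.11 in the KD libraries). The summed counts of the list were nevertheless higher in MDA-MB-231 (648783 and 648522) than in SUM159 (593527 and 598040). EIF4A1, the RNA helicase of the cap-binding complex, had 70697 and 72987 counts in MDA-MB-231 and 22740 and 22895 in SUM159 (1.65 ± 0.02, adjusted p = 5.15e-25). EIF4G1, the scaffold of that complex, had 3235 and 3227 against 8850 and 8918 (-1.46 ± 0.03, adjusted p = 1.45e-21). EIF2S3, the gamma subunit of eIF2, had 3019 and 2999 against 12820 and 12570 (-2.08 ± 0.03). The helicase and the scaffold of 1 complex thus differed in opposite directions. EEF1A2, an elongation factor isoform known from muscle and nerve, had 455 and 400 against 1599 and 1619 (-1.91 ± 0.08) in the EV libraries, while the KD libraries gave 0.11 with an adjusted p of 0.252.

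TRMT112, its partners and other enzymes of rRNA modification were higher in SUM159 for 19 of 27 genes and higher in MDA-MB-231 for 6 (median -0.47, and 0.07 in the KD libraries). TRMT112 had 4147 and 3938 counts in MDA-MB-231 and 6332 and 6566 in SUM159 (-0.67 ± 0.04, adjusted p = 5.64e-14). BUD23, its partner for a guanosine of 18S rRNA, had 4665 and 4865 against 6695 and 6538 (-0.47 ± 0.03). METTL5, its partner for an adenosine of 18S rRNA, was not called, with 2269 and 2072 against 2331 and 2239 (adjusted p = 0.189), and neither was N6AMT1, a protein methyltransferase (adjusted p = 0.278). TRMT11, a tRNA methyltransferase, had 845 and 920 against 674 and 687 (0.37 ± 0.07), and HEMK1 had 635 and 635 against 508 and 522 (0.30 ± 0.07). ALKBH8, which modifies the wobble base of some tRNAs, had 603 and 579 against 1798 and 1915 (-1.65 ± 0.06, adjusted p = 5.39e-17), and its order was turned in the KD libraries, with 524 and 517 against 226 and 233. THUMPD2 and THUMPD3, RNA methyltransferase subunits, passed by a small margin, at -0.32 ± 0.13 and -0.12 ± 0.05 (adjusted p = 0.0307 and 0.0495), and both calls were lost with RLE scaling.

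Ribosome biogenesis genes gave 24 and 53 of 88 (median -0.21, and 0.37 in the KD libraries). TSR1, which acts in the assembly of the small subunit, had 7126 and 7345 counts in MDA-MB-231 and 2436 and 2450 in SUM159 (1.57 ± 0.04) and lies on the short arm of chromosome 17. MRTO4, a factor of the large subunit, had 1774 and 1839 against 4173 and 4273 (-1.22 ± 0.04). Of 74 nuclear genes of the respiratory chain and ATP synthase, 7 were higher in MDA-MB-231 and 60 in SUM159 (median -0.49, and -0.97 in the KD libraries). NDUFB2, a subunit of complex I, had 799 and 724 against 3392 and 3282 (-2.13 ± 0.05). Of the 13 mRNAs of the mitochondrial genome, 1 was higher in MDA-MB-231 and 11 in SUM159 (median -0.69), led by MT-CYB with 6911 and 6859 against 19555 and 20236 (-1.53 ± 0.03). These mRNAs are translated inside mitochondria and not by the cytosolic ribosomes of polysomes.

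The remaining lists held small families with large differences. Among S100 proteins, annexins and galectins, 7 of 23 were higher in MDA-MB-231 and 11 in SUM159 (median -0.17, and 0.04 in the KD libraries). ANXA3, a calcium-dependent membrane binder, had 4010 and 4058 counts against 38.4 and 38.2 (6.72 ± 0.09), and S100A4, a calcium-binding protein of motile cells, had 48.0 and 40.2 against 3505 and 3912 (-6.39 ± 0.09). Among cancer-testis antigens, which are germline proteins, 3 of 11 were higher in MDA-MB-231 and 7 in SUM159 (median -3.71, -1.11 with bounds). MAGEB2 had 3262 and 3360 counts in MDA-MB-231 against 1.01 and 2.01 (at least 1096-fold higher), and MAGEA12 had 0 and 0 against 1640 and 1659 (at least 593-fold higher in SUM159), although members of the MAGEA family are alike in sequence.

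HOX genes, the transcription factors that mark position along the body axis, separated by cluster. Of 32 tested, 9 were higher in MDA-MB-231 and 18 in SUM159 (median -4.94, -1.06 with bounds). In the B cluster on chromosome 17 (GRCh38, chr17:48548870-48633572), the 7 neighbours from HOXB3 to HOXB9 were all called higher in MDA-MB-231 by at least 1, led by HOXB9 with 4383 and 4504 counts against 4.04 and 1.01. In the C cluster (chr12:53973126-54056030) 6 neighbours were higher in SUM159, led by HOXC10 with 0 and 0 against 1508 and 1547 (at least 549-fold higher). Every gene of both stretches was also called in the same direction by at least 1 in the KD libraries.

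Position along the chromosomes was then read for all tested genes. Each chromosome was cut at its longest stretch without a tested gene, which for chromosomes 17 and 18 lies at or next to the centromere, and gave 45 sides. The short arm side of chromosome 17 (chr17:142789-22205009) had the highest median of all of them, 1.54 over 311 genes, with 251 genes called higher in MDA-MB-231 (80.7%) and 23 higher in SUM159 (7.4%). The other side of chromosome 17 had a median of -0.05. The long arm side of chromosome 18 (chr18:20944612-80247514) had the lowest median, -1.32 over 164 genes, with 25 called higher in MDA-MB-231 (15.2%) and 112 higher in SUM159 (68.3%), against a median of 0.16 for the short arm side. The long arm side of chromosome 3 followed among the larger sides with -0.83 over 470 genes. In the KD libraries the medians of these 3 sides were 1.74, -1.35 and -0.69.

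**Figure D4:**
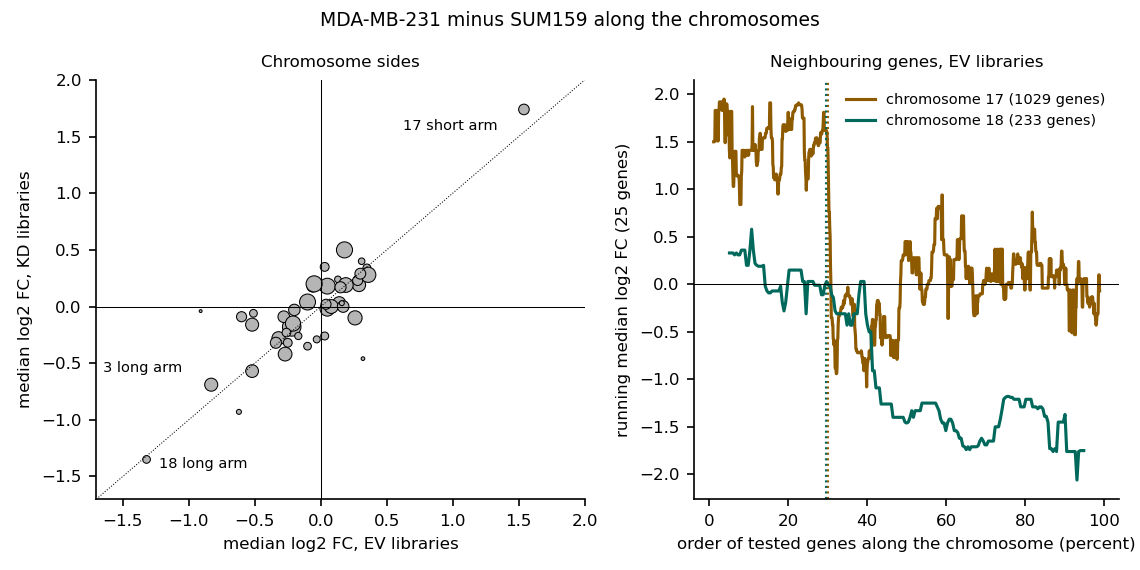
Left, the median log2 difference (MDA-MB-231 minus SUM159) of each of 45 chromosome sides in the EV libraries (x axis) and in the KD libraries (y axis), with point area by number of genes and the dotted line at equal values. Right, the running median over 25 neighbouring genes of chromosomes 17 and 18 in the EV libraries, with dotted lines at the gap between the sides, where chromosome 17 drops from around its short arm median of 1.54, while chromosome 18 falls toward -1.32 some way beyond its gap.

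Runs of neighbours showed the same stretches. A run was at least 5 adjacent protein-coding genes that were all called in 1 direction by at least 1, and 33 runs were higher in MDA-MB-231 and 22 in SUM159. The longest held 17 genes from CHRNB1 to WRAP53 (chr17:7445061-7703502), with log2 differences of 1.10 to 4.53, and all 17 were called in the same direction in the KD libraries, 16 of them by at least 1. It holds POLR2A, the largest subunit of RNA polymerase II, with 2125 and 2091 counts in MDA-MB-231 against 738 and 700 in SUM159 (1.55 ± 0.06), and also EIF4A1 and CD68, whose values are given above. FXR2, an RNA-binding relative of FMRP in the same run, had 6488 and 6661 against 1149 and 1120 (2.54 ± 0.04). TNFSF12-TNFSF13 and SENP3-EIF4A1 are readthrough genes that overlap their neighbours, so reads of these can be shared. A second run of 15 genes from DRG2 to MAPK7 (chr17:18087892-19383544) held ALKBH5, an RNA demethylase, with 8204 and 8045 against 2054 and 2302 (1.90 ± 0.04), and FLII, an actin-binding protein, with 13331 and 12665 against 2216 and 2171 (2.57 ± 0.04). Another run of 12 genes from ENSG00000263809 to TMEM220 (chr17:8368638-10730023) held RPL26, a ribosomal protein, with 14149 and 14929 against 6197 and 6191 (1.23 ± 0.03). Its low members, GLP2R among them with 14.1 and 16.4 against 1.01 and 0, rest on few counts. All 15 genes of the second run and 10 of these 12 were called in the same direction in the KD libraries.

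On the side of SUM159 the longest run held 10 genes of chromosome 8 from GOLGA7 to VDAC3. In the KD libraries 9 of the 10 were called in the same direction, 6 of them by at least 1, and PLAT was at 0.60 against -1.78 in EV. IKBKB, a kinase that activates NF-kappaB, had 418 and 412 counts in MDA-MB-231 and 1500 and 1458 in SUM159 (-1.83 ± 0.06) there. Among 3 runs of 9 genes, 2 lie on chromosome 18. The run from ME2 to RAB27B (chr18:50879080-54895516) holds SMAD4, the shared mediator of TGF-beta and BMP signals, with 288 and 231 against 731 and 739 (-1.50 ± 0.11). The run from RNF152 to VPS4B (chr18:61808067-63422483) holds BCL2, the inhibitor of cell death, with 256 and 255 against 619 and 646 (-1.31 ± 0.08), a call that was lost when its most abundant transcript was tested alone. The third, from LMF2 to CHKB, is on chromosome 22. All 9 genes of the first and the third of these runs and 8 of the second were called in the same direction in the KD libraries. DNA copy number was not analysed here, and its part in these stretches was not tested.

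The differences reached the most abundant mRNAs. On a scale that divides counts by transcript length and by the library total (TPM), PFN1, the actin-binding protein profilin, ranked first in MDA-MB-231 with 9056 and 8903 TPM and sixth in SUM159 with 4455 and 4405 TPM. LGALS1, the gene of galectin-1, ranked first in SUM159 with 6590 and 7102 TPM against 7124 and 7305 TPM in MDA-MB-231. The fitted log2 difference of LGALS1 was -0.12, so TPM and the fit give opposite directions for this gene. UBB, a ubiquitin precursor on the short arm of chromosome 17, held rank 9 in MDA-MB-231 with a mean of 4358 TPM and rank 148 in SUM159 with 1027 TPM. EIF4A1 held ranks 10 and 146 with means of 3763 and 1031 TPM. EEF1A1, the main elongation factor, held rank 3 in both lines with means of 7012 and 4576 TPM. S100A6, a small calcium-binding protein, held rank 60 in MDA-MB-231 with a mean of 1542 TPM and rank 5 in SUM159 with 4474 TPM.

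Transcript shares were tested within genes. Of 59573 transcripts in 11726 genes, 3149 changed their share of the gene between the lines (5.29%, edgeR test of differential transcript use, Benjamini-Hochberg adjusted p under 0.05), in 2076 genes, and 655 of them in 489 genes did so by at least 20 percentage points. The count depends on the number of libraries, since leaving out any 1 of the 4 EV libraries gave 1469 to 1670 transcripts. Expected counts divide the reads that transcripts share, so each share is an estimate. RPSA, a ribosomal protein gene, shows where such estimates are uncertain, because RPSA-201 held 93.5% and 94.9% of the gene in MDA-MB-231 and 6.0% and 6.4% in SUM159. RPSA-204, which starts close by and has the same 295 codons, held 3.8% and 3.0% against 63.4% and 63.8%.

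Clearer changes were those between starts that lie far apart. FADS2 used the upstream of its starts for 12.7% and 14.5% of its counts in MDA-MB-231 and for 99.1% and 98.6% in SUM159, and the starts are 12044 bases apart. The downstream start was thus used in the line with the 13177 and 12895 counts of the gene. SLC44A2, a choline transporter, used its upstream start for 86.7% and 85.8% against 26.4% and 19.7% (23043 bases apart). SLCO4A1, an organic anion transporter, showed 26.3% and 28.5% against 92.6% and 91.9% (13856 bases apart). PTPRM, a receptor tyrosine phosphatase, showed 88.7% and 91.5% against 4.24% and 1.53% (188191 bases apart). Among these genes, SLCO4A1-201 and SLCO4A1-202 end at the same base and both code for 722 codons, with 12 and 11 exons. FADS2-201 and FADS2-202 also end at the same base, with 12 exons each. The main transcripts of either start end close together in SLC44A2 and PTPRM too. Reads shared between such transcripts make each of these splits less certain.

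**Figure D5:**
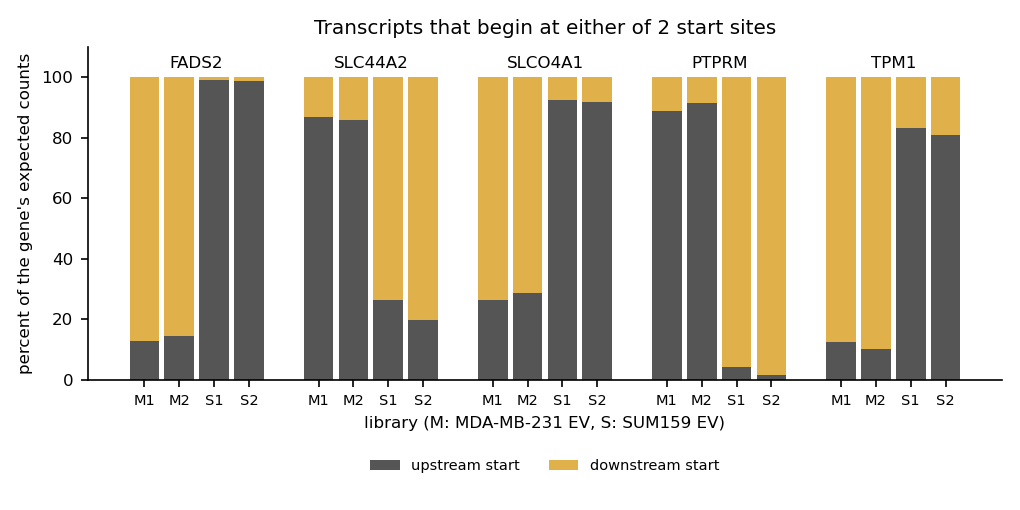
Stacked bars give the percent of each gene's expected counts on transcripts from the upstream (grey) and the downstream (yellow) start in each of the 4 control libraries (M1 and M2, MDA-MB-231 EV 1 and 2, and S1 and S2, SUM159 EV 1 and 2). The larger part changes sides between the lines in each of the 5 genes, and the libraries of a line are within 7 percentage points of each other.

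TPM1 did so without a change of its gene total. Transcripts from its upstream start held 12.5% and 10.2% in MDA-MB-231 and 83.2% and 81.0% in SUM159, with the starts 5786 bases apart. Transcripts that code for 284 codons, the long tropomyosins, held 11.8% and 9.63% against 80.8% and 78.9%, and those that code for 248 codons, the short ones, held 49.8% and 47.0% against 15.8% and 17.3%. TPM1-223, annotated with 158 codons and thus in neither class, held 33.2% and 38.0% in MDA-MB-231 against 0.1% and 0.0% in SUM159. TPM1-206, a long transcript, had no count in MDA-MB-231 and 55.2% and 53.4% of the gene in SUM159 (adjusted p = 1.87e-71), and TPM1-208, a short one, had 47.5% and 44.7% against 12.7% and 13.9% (adjusted p = 1.81e-20). When the most abundant transcript of the gene stood for it, the difference of TPM1 was 1.78 in place of -0.01.

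The 100 bases before the 2 starts of SLC44A2 and TPM1 are printed because each pair separates the lines. All are on the plus strand of GRCh38, the upstream start of a gene comes first, and capitals mark CG dinucleotides, the sites that DNA methylation uses. The stretches are chr19:10602410-10602509 and chr19:10625453-10625552 for SLC44A2, and chr15:63042585-63042684 and chr15:63048371-63048470 for TPM1.
SLC44A2-202: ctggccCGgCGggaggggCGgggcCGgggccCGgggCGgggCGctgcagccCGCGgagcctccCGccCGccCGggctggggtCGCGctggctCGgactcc
SLC44A2-201: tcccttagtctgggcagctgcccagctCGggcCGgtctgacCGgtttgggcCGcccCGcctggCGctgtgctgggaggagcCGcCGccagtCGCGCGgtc
TPM1-206: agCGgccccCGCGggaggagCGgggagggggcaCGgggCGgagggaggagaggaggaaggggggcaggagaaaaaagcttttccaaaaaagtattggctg
TPM1-208: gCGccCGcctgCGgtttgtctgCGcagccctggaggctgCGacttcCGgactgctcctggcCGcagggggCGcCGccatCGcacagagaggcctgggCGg

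Over whole promoters, the median ratio of observed to expected CG was 0.70 for 126 genes read in MDA-MB-231 only, 0.75 for 94 genes read in SUM159 only, and 0.83 for 11857 tested genes. Methylation was not measured in these libraries.

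Among the other genes that the study names, ATP1B1, which encodes a beta chain of the sodium-potassium ATPase, had 1815 and 1972 counts in MDA-MB-231 and 523 and 445 in SUM159 (1.97 ± 0.07, adjusted p = 1.37e-17). LMCD1, a LIM domain protein, was not called, with 224 and 224 against 217 and 250 (-0.06 ± 0.10, adjusted p = 0.598), and the KD libraries gave -1.03.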

How the data were processed

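RNA of pooled polysome fractions was sequenced on an Illumina NovaSeq instrument in 12 libraries, of which the 2 MDA-MB-231 EV and 2 SUM159 EV libraries are compared. The submitters' processing notes name Trimmomatic, HISAT2, SAMtools and Partek and the build GRCh38. The counter, annotation and strand setting are not given in the sources used here. The labels and the methods differ on the library kit, poly(A) enrichment in the former and rRNA depletion in the latter. The authors deposited 1 table of expected counts per transcript, with no normalization, in which 5.08% of the rows hold a question mark in some library, taken as 0 here. Of 201932 transcripts, 79.6% matched GENCODE 44 and were summed to 24559 gene symbols, and 0.74% to 0.75% of the EV counts were on transcripts without a match.

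Sums were rounded to whole numbers and scaled by TMM. Genes that passed the edgeR filter on low counts were fitted over all 12 libraries with a mean for each of 6 groups, by the quasi-likelihood test of edgeR 4.0.16 in R 4.3.3 with Benjamini-Hochberg adjustment at 0.05. Standard errors are the log2 difference divided by the root of F. With 2 libraries per group an exact permutation test cannot pass 0.05, so every p-value comes from this fit. Transcript shares were tested with diffSpliceDGE of edgeR. The gene fit was also run on simulated counts built from its own fitted values, and no result here rests on that run. Between the 2 EV groups, the deviations of replicate 1 from its group mean had a correlation of -0.024. Where such deviations are mostly counting error, this value is near 0 with or without pairing, so it cannot settle pairing. The main fit took no pairing, and a block by replicate number was an alternative. Alternatives were other scalings, DESeq2 1.42.0, filters, sample sets, the most abundant transcript and leaving out each library.

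Members and gene lists were chosen with earlier results of these data known. Named genes were the 10 of largest difference per direction with a mean of at least 500 counts, the 4 of largest difference per list with a mean of at least 50, TRMT112 with its partners and the genes the study names, hormone receptor and other cell type markers, the 5 most abundant genes read in 1 line only, the members of the 3 longest runs per direction, the 8 transcripts of largest change in share, and the 5 genes of highest TPM per line. Other genes were named after their values were seen, namely AXL, CDH1, CDH2, CDKN2A, COL1A1, DKK1, DKK3, DUSP1, EGFR, EPCAM, FKBP5, IFIT1, IFITM1, IFITM3, IL32, ISG15, KRT7, KRT8, KRT18, NR3C1, PSAT1, SGK1, SNAI2, SOD2, TP63, UBB, VIM, ZEB1 and the genes of the transcript starts. The chromosome sides were chosen after seeing the data. Intervals of counting error were not computed, because 2 libraries per group give the spread. Some genes, 1 gene list and some sequences are not reported here.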

Additional observations from a re-analysis of the deposited data

Results flagged for a closer look

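For ALKBH8 the line difference in the EV libraries minus that in the KD libraries was -2.83 on the log2 scale (interaction term of the edgeR fit, adjusted p = 3.08e-16). The line difference was -1.65 in the EV and 1.18 in the KD libraries. For ITGA2, an integrin subunit that binds collagen, the same term was -3.23 (adjusted p = 1.12e-13), with line differences of -1.61 in the EV and 1.62 in the KD libraries. ITGA2 had 260 and 261 against 811 and 780 normalised counts in the EV libraries and 274 and 268 against 84.7 and 90.8 in the KD libraries. For both genes the values of MDA-MB-231 were close in EV and KD and those of SUM159 were not.

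The median of the inflammatory list was lower by 1.78 in the EV than in the KD libraries (-1.23 and 0.55), and that of the interferon list by 1.1 (-0.51 and 0.58). These differences between medians were not tested.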

How the results depend on the processing

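With the replicate block 12429 of 16538 genes were called, against 12512 of 16538 without it. The other settings gave 10412 of 16005 (most abundant transcript) to 12747 of 23645 (no filter on low counts). The number of genes tested thus differs between settings, and 10600 of 12590 were called with a mean of at least 50 counts. The number of transcripts with a changed share fell from 3149 to between 1469 and 1670 when 1 EV library was left out (1469 without MDA-MB-231 EV replicate 1, 1670 without replicate 2, 1519 without SUM159 EV replicate 1 and 1611 without replicate 2). Of the called genes 48.1% were higher in MDA-MB-231 under TMM, 51.0% under RLE scaling and 52.8% under library size. Of 245 named genes, 3 changed sign under a setting. With the most abundant transcript THUMPD2 was at 0.20, THUMPD3 at 0.50 and TPM1 at 1.78, and under library size TPM1 was at 0.09. Of the 34 list medians, 33 moved by more than the spread between libraries under at least 1 setting, in 166 values. The largest moves were those of HOX genes (-2.32 under the filter at 50 counts, against -4.94) and cancer-testis antigens (-1.56 with the 4 EV libraries alone, against -3.71). Under the filter at 50 counts, markers of other cell types were at 1.92, against 0.9, and mesenchymal markers at -1.01, against -1.92. Of the medians that changed sign, that of receptor tyrosine kinases was -0.07 with a mean of at least 50 counts. That of serine and one-carbon genes lay between -0.09 and 0.11 with 1 EV library left out (-0.09 without MDA-MB-231 EV replicate 2 and -0.02 without SUM159 EV replicate 2). That of G1 genes was 0.09 with the 4 EV libraries alone. The cause of these changes was not tested. Genes of few counts, such as the low members of the runs, are limited by depth.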
